A study of Mus musculus with 24 samples.

Results

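The PPAR receptors, their RXR partners and a set of coregulators were followed at the RNA level in mouse liver. The set holds 8 genes, taken by symbol from the 17537 genes listed in at least 1 library: the 3 PPAR genes Ppara, Ppard and Pparg, the partner receptors Rxra and Rxrb, the coactivator gene Ppargc1b, and the corepressor genes Ncor1 and Nrip1. Each symbol belonged to 1 gene identifier and was present in all 24 libraries. The libraries were made from livers of male C57BL/6 mice of 20 to 30 g, 6 libraries in each of 4 gavage groups. One group received di(2-ethylhexyl) phthalate (DEHP), a plasticiser and rodent peroxisome proliferator, at 2500 mg/kg body weight together with ethanol at 1 g/kg (labelled DE). One received DEHP alone at 2500 mg/kg, one ethanol alone at 1 g/kg (EtOH), and one the vehicle, 0.5% CMC (CT). The labels name CMC for the vehicle group and not for the others, and they give no duration, age, hour of collection or batch. They describe 12 mice per group and do not tie a library to an animal, so the p-values measure the spread between these libraries, which may be technical in part.

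PPARs are ligand-activated nuclear receptors that sense fatty acids and their derivatives. Each binds DNA as a heterodimer with a retinoid X receptor (RXR), and exchanges corepressors such as NCOR1 for coactivators such as the PGC-1 proteins when a ligand is bound. In rodent liver PPARA is the form through which phthalates and fibrates raise peroxisomal and mitochondrial fatty acid oxidation, PPARD is found in most tissues, and PPARG is best known as the regulator of fat cell formation and lipid storage.

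Total expected counts, the estimated reads per gene before normalisation, ranged from 7324793 to 8016662 per library. Summed FPKM (reads scaled by transcript length and library size) of 8 hepatocyte markers were 39390 to 45030 in DEHP plus ethanol livers, 38560 to 45340 in DEHP livers, 54470 to 68270 in ethanol livers and 49140 to 67410 in vehicle livers, and none of the 8 was at 0. Of these markers 6 fell after DEHP plus ethanol and 5 after DEHP relative to vehicle. A summed level of 12 skeletal muscle markers set 2 libraries apart, with 5392 FPKM in DEHP plus ethanol replicate 6 and 7370 FPKM in vehicle replicate 1, against 4.95 FPKM or less elsewhere. The sum of 12 pancreatic acinar markers reached 699 FPKM in DEHP replicate 6, against 10.6 to 38.2 FPKM elsewhere. Member calls that are lost without these 3 libraries are given both ways. In whole liver, fewer cells of a type and less RNA per cell cannot be told apart.

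All 8 genes reached the level set for testing, at least 1 FPKM in at least 6 libraries. Ppargc1b did so in 18 of 24 libraries and Nrip1 in 17, and the other members in all 24. The mean FPKM over the 24 libraries ordered them as Rxra at 102, Ppara at 30.9, Rxrb at 17.8, Ncor1 at 11.1, Ppard at 8.98, Pparg at 4.66, Ppargc1b at 1.25 and Nrip1 at 1.18. The weakest pair rested on 18 to 48 counts per library for Ppargc1b and 44 to 102 for Nrip1. Counts were also low for Pparg, at 37 to 121, and for Ppard in ethanol livers, at 35 to 87.

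In vehicle livers the order by mean FPKM was Rxra (97.3), Ppara (30.8), Rxrb (17.4), Ppard (14.4), Ncor1 (12.6), Pparg (3.58), Ppargc1b (1.36) and Nrip1 (1.29). Among neighbours in that order, the library values of Rxrb and Ppard, of Ppard and Ncor1, and of Ppargc1b and Nrip1 overlapped. In ethanol livers Ppard, at 2.40 FPKM, stood below Ncor1 (10.9) and Pparg (3.62), and its range of 1.46 to 3.59 overlapped that of Pparg, 2.93 to 4.76. For each Ppara FPKM there were 3.32 ± 0.48 Rxra FPKM in DEHP plus ethanol livers, 3.12 ± 0.32 in DEHP livers, 3.76 ± 0.33 in ethanol livers and 3.32 ± 0.85 in vehicle livers (SD, n = 6 each).

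**Figure D1:**
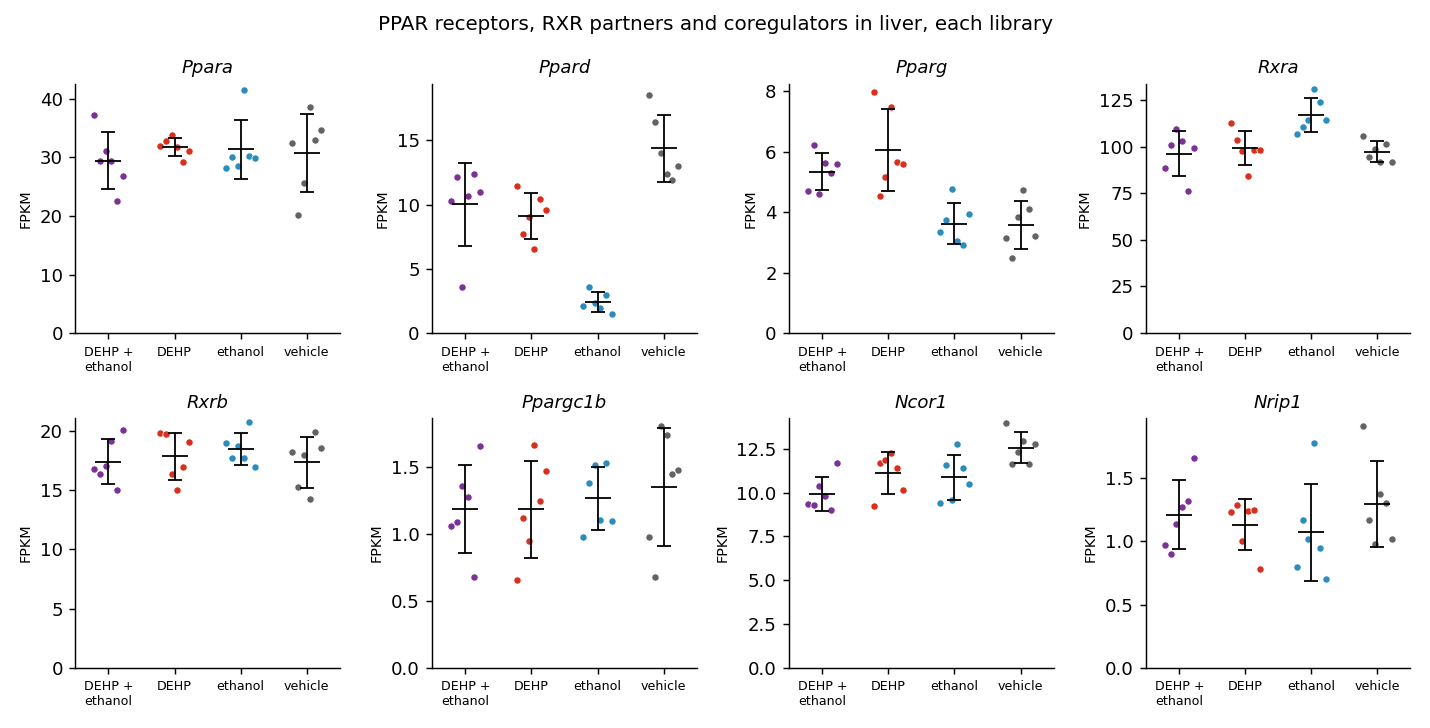
FPKM of the 8 genes in each library (points), with the mean and SD of 6 libraries per group (bars), groups from left to right DEHP plus ethanol, DEHP, ethanol and vehicle. Ppard in ethanol livers sits between 1.46 and 3.59 FPKM, against 11.9 to 18.6 FPKM in vehicle livers; Rxrb, Ppargc1b and Nrip1 overlap across all groups.

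The 8 genes were read out of a fit over all 10697 genes tested (edgeR quasi-likelihood F test, Benjamini-Hochberg adjustment over all of them, called at an adjusted p below 0.05). For ethanol against vehicle 2 of the 8 were called, Rxra higher and Ppard lower, where 28.8% of all genes were called, 14.2% higher and 14.5% lower. For DEHP against vehicle 2 were called, Pparg higher and Ppard lower, beside 26% of all genes, 14.4% higher and 11.6% lower. For DEHP plus ethanol against vehicle 4 were called, Pparg higher and Ppara, Ppard and Ncor1 lower, beside 36.8% of all genes, 19.3% higher and 17.4% lower. These 3 comparisons share the vehicle libraries. For DEHP plus ethanol against ethanol 5 were called, Ppard and Pparg higher and Ppara, Rxra and Ncor1 lower, beside 27.8% of all genes, 15.1% higher and 12.7% lower. Against DEHP alone the combination changed 0 of the 8 by edgeR and 0 in each of the 13 other settings that kept all or most libraries, and 0.122% of all genes were called, 0.0467% higher and 0.0748% lower. Without adjustment 1 of the 8, Ncor1, had a p below 0.05 there. The interaction asks whether ethanol made the same difference with DEHP as without it, and it was called for 1 of the 8, Ppard, beside 6.41% of all genes, 3.32% higher and 3.09% lower. With 8 members these counts lie near the shares of all genes called, except for the 5 of 8 against ethanol, which is described and not tested. Rxrb, Ppargc1b and Nrip1 were called in none of the 6 comparisons. The balance of calls over all genes depended on the scaling. It was 1524 higher and 1555 lower for ethanol against vehicle, but 930 and 2061 without TMM factors, 1090 and 1780 by limma on log2(FPKM + 1), and 481 and 2764 on log2(TPM + 1). It was 1620 higher and 1356 lower for DEHP plus ethanol against ethanol, but 2198 and 915, 2110 and 942, and 2563 and 695 under these settings. For the interaction it was 355 and 331, but 447 and 203 without TMM factors and 439 and 120 on log2(TPM + 1).

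**Figure D2:**
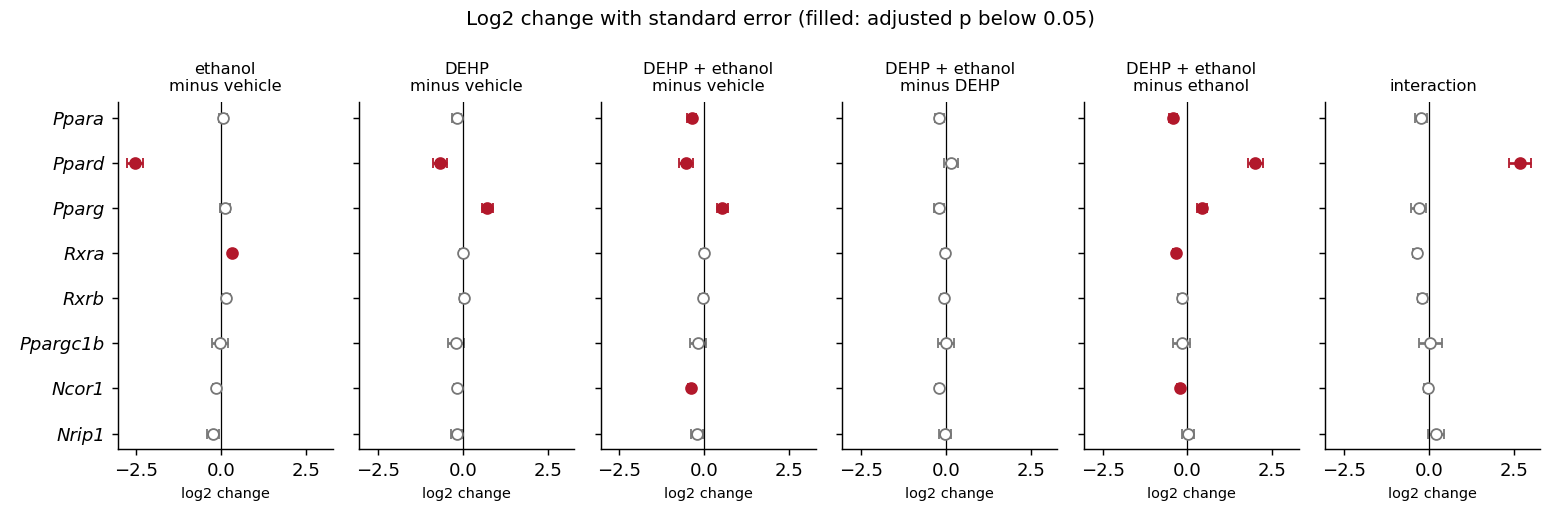
Log2 change of each gene with its standard error (x axis), with 1 panel for each of the 6 comparisons. Filled points have an adjusted p below 0.05; the points of Ppard at -2.53 (ethanol minus vehicle), 2.0 (DEHP plus ethanol minus ethanol) and 2.68 (interaction) lie farthest from 0.

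Ppard, the gene of PPARD, lies on chromosome 17 at 28232754 to 28301469 (GRCm38.p6). Its promoter window is shown because Ppard is the member that moved most, beside those of Npas2 and Cdkn1a, which are among the genes whose levels followed it most closely. The windows are RefSeq sequence on GRCm38.p6, plus strand, 5′ to 3′, at chr17:28232504-28232699 for Ppard, chr1:39194022-39194211 for Npas2 and chr17:29090729-29090975 for Cdkn1a. They begin 250 bases before the RefSeq start and stop where the first exon annotated by GENCODE begins. Capitals mark the GC box GGGCGG and the CCAAT box CCAAT on either strand.
Ppard: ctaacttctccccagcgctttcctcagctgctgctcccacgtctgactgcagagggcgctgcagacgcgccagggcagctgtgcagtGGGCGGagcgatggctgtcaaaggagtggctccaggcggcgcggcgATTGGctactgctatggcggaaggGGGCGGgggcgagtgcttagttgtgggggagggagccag
Npas2: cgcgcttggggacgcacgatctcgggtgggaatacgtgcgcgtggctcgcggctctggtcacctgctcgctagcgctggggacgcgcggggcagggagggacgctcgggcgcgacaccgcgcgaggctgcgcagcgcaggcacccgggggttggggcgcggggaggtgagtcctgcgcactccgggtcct
Cdkn1a: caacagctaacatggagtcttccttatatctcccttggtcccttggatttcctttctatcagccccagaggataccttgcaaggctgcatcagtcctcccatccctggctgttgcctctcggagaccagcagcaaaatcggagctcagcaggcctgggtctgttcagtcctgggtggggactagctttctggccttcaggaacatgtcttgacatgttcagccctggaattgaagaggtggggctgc
The printed Ppard window holds 2 GC boxes, 163 and 93 bases before the RefSeq start, and 1 CCAAT box on the opposite strand 117 bases before it. The printed windows of Npas2 and Cdkn1a hold neither. In the full windows of 250 bases Ppard has 3 GC boxes, the third at 29 bases before the start, and Npas2 has 1, at 59 bases. Cdkn1a has 0 in this window and 2 in that of a second RefSeq start. In the other members searched, with 1 value per RefSeq start, GC boxes numbered 2 for Ppara and 1, 2 and 0 for Pparg. They numbered 3 and 0 for Rxra, 2 and 3 for Rxrb, and 0 and 2 for each of Ncor1 and Nrip1. None of the 3 printed windows holds the E-box CACGTG, the D-box TTATGTAA or the nuclear receptor half-site AGGTCA on either strand. Of 32851 full RefSeq promoter windows of 250 bases, 32.7% held a GC box, 33.8% a CCAAT box, 6.02% this E-box, 0.819% this D-box and 14% the half-site. The G and C content was 66.8% in the Ppard window, 75.3% in the Npas2 window and 54.3% in the Cdkn1a window. These matches describe letters in a window and not bound sites.

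Ppard RNA was lowest after ethanol alone. Its FPKM had a lowest, median and highest value of 3.55, 10.9 and 12.4 in DEHP plus ethanol livers, 6.51, 9.30 and 11.4 in DEHP livers, 1.46, 2.22 and 3.59 in ethanol livers, and 11.9, 13.6 and 18.6 in vehicle livers. No ethanol library reached any DEHP or vehicle library, and no DEHP library reached a vehicle library. The highest vehicle value came from replicate 1, one of the libraries with skeletal muscle RNA, and its part in the level was not tested. Some markers of other liver cells were lower after ethanol than after vehicle, with 2 of 8 endothelial, 2 of 8 stellate and 2 of 5 tested cholangiocyte markers called. Of the Kupffer cell and macrophage markers 0 of 8 were called, and of all genes tested 14.5% were called lower. The summed endothelial markers were 37.6 to 52.4 FPKM in ethanol livers and 43.7 to 89.7 FPKM in vehicle livers, and their part in the Ppard change was not tested.

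Relative to vehicle, Ppard fell by 2.53 on the log2 scale after ethanol (SE 0.23, edgeR adjusted p = 3.17e-08), to 0.173 of the vehicle level, in 6 of 6 libraries. This was the 14th smallest p of the 10697 genes. After DEHP alone it fell by 0.68 (SE 0.21, adjusted p = 0.0183), also in 6 of 6 libraries. Without the 3 libraries with RNA of other tissues that change was -0.64 with an adjusted p of 0.0547, and the ethanol change was -2.47 (adjusted p = 2.6e-07).

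After DEHP plus ethanol the change from vehicle was -0.53 (SE 0.21, edgeR adjusted p = 0.0464), with 6 of 6 libraries below the vehicle mean. This call sat at the threshold. It was lost when 1 library was left out in 10 of 24 cases, with adjusted p values of 0.0818, 0.0893, 0.0604 and 0.0537 without vehicle replicates 1, 2, 3 and 6. They were 0.063, 0.0808 and 0.0529 without DEHP plus ethanol replicates 1, 3 and 4, and 0.0507, 0.0513 and 0.0509 without DEHP replicates 2, 3 and 6. The change was -0.36 without DEHP plus ethanol replicate 3, and between -0.61 and -0.48 in the other leave-outs. The call was also lost in 6 of 13 other settings. Its adjusted p was 0.0504 with upper quartile factors, 0.0545 without TMM factors, 0.0615 with no filter, 0.0712 with only the groups compared and 0.0733 with the trend of change on gene length removed, and the change was -0.50 (adjusted p = 0.0964) without the 3 libraries with RNA of other tissues.

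Compared with ethanol alone, Ppard was 4-fold higher in DEHP plus ethanol livers (log2 change 2.0, SE 0.23, edgeR adjusted p = 3.9e-07), in 6 of 6 libraries. Compared with DEHP alone it differed by 0.15 (SE 0.21, adjusted p = 0.84). The difference between the effects of ethanol with and without DEHP, the interaction, was 2.68 on the log2 scale (SE 0.31, edgeR adjusted p = 1.07e-05) and had the 5th smallest p of the 10697 genes. Leaving out any 1 library kept the interaction between 2.57 and 2.85, with adjusted p values no higher than 5.39e-05. It was 2.61 without the 3 libraries with RNA of other tissues (adjusted p = 0.000152).

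One library of the combination stood apart. DEHP plus ethanol replicate 3 had 3.55 FPKM of Ppard from 86 counts, just under the highest ethanol library at 3.59 FPKM, while the other 5 libraries of its group held 10.3 to 12.4 FPKM with a mean of 11.3 ± 0.91 (SD, n = 5). The same library was the lowest of its group for Npas2 and Cdkn1a. It had 1.05 FPKM of Npas2, with 2.0 to 2.64 in the other 5, and 16.77 FPKM of Cdkn1a, with 21.95 to 25.95. Npas2 and Cdkn1a were picked for following Ppard over all 24 libraries, this one included. Their low values there therefore lend the Ppard value no support.

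Likeness was measured as the Pearson r of log2 CPM (counts scaled by library size) over the 24 libraries, and again after taking out the group means. It is a description over points that share libraries and depth. Among the nearest genes to Ppard were Npas2, a transcription factor of the circadian clock (r = 0.935, within groups 0.646), and Cdkn1a, which encodes the cell cycle inhibitor p21 (0.922 and 0.358). Mean Cdkn1a was 23.1 ± 3.39 FPKM in DEHP plus ethanol livers, 32.7 ± 6.18 in DEHP livers, 1.503 ± 0.463 in ethanol livers and 56.3 ± 14.7 in vehicle livers (SD, n = 6 each). Its interaction was 4.65 (adjusted p = 1.36e-11), and that of Npas2 was 2.91 (adjusted p = 0.000131), both by edgeR. Since these genes were picked for following Ppard, the size of their changes lends it no support. Exons of Cdkn1a share 273 bases with an annotated gene on the opposite strand, and the use of strand in counting is not given in the sources used here.

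**Figure D3:**
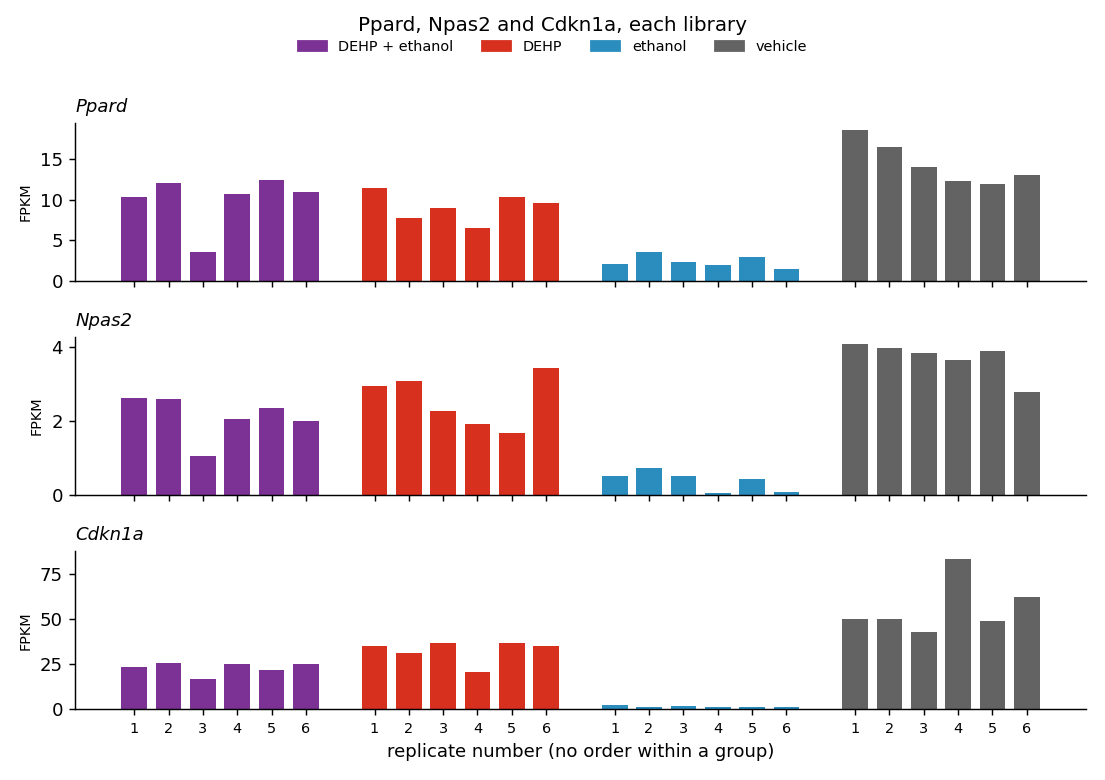
FPKM of Ppard, Npas2 and Cdkn1a in every library, as bars from 0, grouped as DEHP plus ethanol, DEHP, ethanol and vehicle; replicate numbers carry no order. Each gene is lowest in the ethanol livers, and replicate 3 is the lowest DEHP plus ethanol library for all 3, with 3.55 FPKM of Ppard. Npas2 and Cdkn1a were picked for following Ppard over these same libraries.

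Because FPKM compares genes per length within a library, the balance among the 3 PPAR genes could be followed without scaling between libraries. Ppard supplied 22.3 ± 7.41% of their summed FPKM in DEHP plus ethanol livers, 19.3 ± 3.31% in DEHP livers, 6.50 ± 2.16% in ethanol livers and 30.1 ± 7.54% in vehicle livers (SD, n = 6 each). Ppara supplied 65.7 ± 8.26%, 67.8 ± 3.92%, 83.7 ± 3.31% and 62.5 ± 6.95% in the same groups. The share of Ppard differed by -23.6 percentage points between ethanol and vehicle livers, without overlap (exact two-sided permutation test, p = 0.00216, the smallest that 6 against 6 allows, and 0.0108 adjusted over the 5 pairs). It differed by -10.8 points between DEHP and vehicle livers (exact permutation test, adjusted p = 0.0108) and 15.8 points higher in DEHP plus ethanol than in ethanol livers (adjusted p = 0.0108). The -7.85 points between DEHP plus ethanol and vehicle gave an exact permutation adjusted p of 0.116, and the 2.94 points between DEHP plus ethanol and DEHP gave 0.403.

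This last comparison turned on 1 library. Without DEHP plus ethanol replicate 3 the share was 5.58 points higher than in DEHP livers (exact permutation test, adjusted p = 0.0433). Taken from counts in place of FPKM, the difference between DEHP and vehicle livers was -5.66 points and was not called (exact permutation test, adjusted p = 0.0902). The summed FPKM of the 3 genes was 44.8 ± 4.90 in DEHP plus ethanol livers, 47.0 ± 2.39 in DEHP livers, 37.4 ± 4.64 in ethanol livers and 48.8 ± 6.38 in vehicle livers. Ppara FPKM per Ppard FPKM came to 3.63 ± 2.57, 3.62 ± 0.83, 14.3 ± 5.29 and 2.23 ± 0.74 in these groups (SD, n = 6 each). The high ratio of ethanol livers ran from 8.36 to 21.0, and the largest in vehicle livers was 3.13.

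Ppara, on chromosome 15 at 85734910 to 85806851, encodes the receptor that peroxisome proliferators act through. Its counts and its level per length gave different answers. Its FPKM had a lowest, median and highest value of 22.5, 29.4 and 37.3 in DEHP plus ethanol livers, 29.2, 31.8 and 33.9 in DEHP livers, 28.1, 30.0 and 41.5 in ethanol livers, and 20.2, 32.7 and 38.7 in vehicle livers, and all groups overlapped. Its expected counts averaged 1125 ± 122 in DEHP plus ethanol livers, 1269 ± 105 in DEHP livers, 1442 ± 262 in ethanol livers and 1415 ± 291 in vehicle livers (SD, n = 6 each).

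On counts, Ppara was lower after DEHP plus ethanol than after vehicle, with a log2 change of -0.37 (SE 0.13, edgeR adjusted p = 0.0211). Its counts scaled by library size (CPM) lay below the vehicle mean in 6 of 6 libraries, and its FPKM in 4 of 6. It was also lower than after ethanol alone, with a change of -0.43 (SE 0.13, adjusted p = 0.0116), below the ethanol mean in 6 of 6 libraries by CPM and in 5 of 6 by FPKM. Per length neither call held. The change from vehicle was -0.05 by limma on log2(FPKM + 1) (adjusted p = 0.801) and -0.07 by edgeR with each library's own gene length as an offset (adjusted p = 0.698), and the change from ethanol was -0.09 (adjusted p = 0.619) and -0.17 (adjusted p = 0.365). Without vehicle replicate 4 or 6 the count-based change from vehicle also lost its call, with adjusted p values of 0.0607 and 0.0554.

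The length that the deposited tables give for Ppara in each library moved with DEHP. It averaged 5088 ± 378 bases in DEHP plus ethanol livers, 5391 ± 312 in DEHP livers, 6020 ± 363 in ethanol livers and 6224 ± 182 in vehicle livers (SD, n = 6 each). The combination differed from vehicle by -1136 bases and from ethanol by -932 bases, and DEHP alone differed from vehicle by -834 bases, each without overlap (exact permutation test, p = 0.00216, adjusted p = 0.0189 over 35 tests of 7 genes). Between the combination and DEHP the difference was -303 bases (exact permutation test, adjusted p = 0.326), and between ethanol and vehicle -204 bases (adjusted p = 0.425). The tables list 4 transcripts for Ppara, 2 with RefSeq accessions and 2 with identifiers of another kind. The RefSeq pair matched GENCODE transcripts of 2519 and 3413 bases, both shorter than the lowest length given for any library, 4355 bases. GENCODE lengths need not be those behind the deposited lengths. For Rxra, with 3 RefSeq transcripts and 0 of another kind, the longest match was 4905 bases, while its vehicle libraries gave 5131 to 5188. The matches thus do not show which Ppara transcripts made up the difference. The structure of the other 2 Ppara transcripts is not analysed here.

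Ppard was the other member whose length differed, at 3246 ± 15 bases in ethanol livers against 3288 ± 8 in vehicle livers (difference -41.8 bases, exact permutation test, adjusted p = 0.0189). The combination exceeded ethanol by 39.1 bases (exact permutation test, adjusted p = 0.0454). In ethanol livers the lowest and the median length of Ppard were both 3240 bases, and the highest was 3276. These lengths rested on 35 to 87 counts per library, against 287 to 438 in vehicle livers. The part of low counts in the length difference was not tested. With the own-length offset the Ppard interaction was 2.66 (edgeR adjusted p = 1.17e-05). Pparg, Rxra, Rxrb, Ncor1 and Nrip1 gave 0 calls on length, and Ppargc1b has 1 transcript of 3656 bases in every library. The length comparison was chosen after the values were seen.

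**Figure D4:**
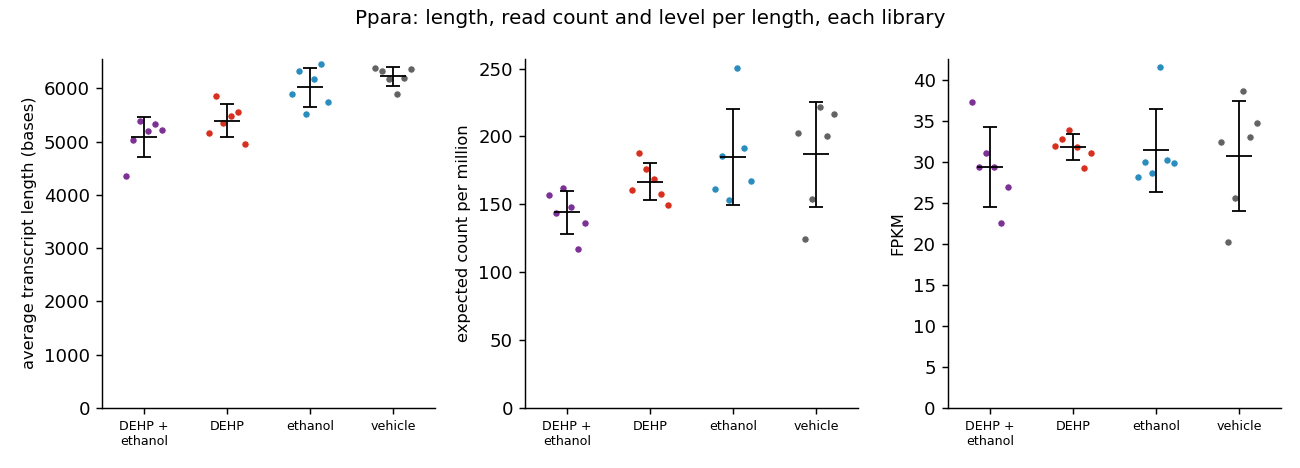
Ppara in each library: the average transcript length given by the deposited tables (bases, left), CPM, expected counts scaled by library size (middle) and FPKM (right), points with mean and SD of 6 libraries, groups from left to right DEHP plus ethanol, DEHP, ethanol and vehicle. The length averages 5088 bases in DEHP plus ethanol livers and 6224 in vehicle livers, while FPKM averages 29.4 and 30.8 in these groups.

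Pparg, on chromosome 6 at 115360879 to 115490404, encodes the receptor known for fat cell formation, and it was higher in both DEHP groups. Its FPKM had a lowest, median and highest value of 4.61, 5.43 and 6.22 in DEHP plus ethanol livers, 4.53, 5.63 and 7.98 in DEHP livers, 2.93, 3.53 and 4.76 in ethanol livers, and 2.48, 3.52 and 4.74 in vehicle livers. The lowest libraries of the DEHP groups, replicates 1 and 3 of the combination and replicate 2 of DEHP, overlapped the highest ethanol and vehicle libraries, and the other DEHP libraries lay above both groups. Relative to vehicle the log2 change was 0.72 after DEHP (SE 0.15, edgeR adjusted p = 0.00107) and 0.53 after DEHP plus ethanol (SE 0.16, adjusted p = 0.00876), each in 6 of 6 libraries. Relative to ethanol it was 0.42 after DEHP plus ethanol (SE 0.15, adjusted p = 0.0424), in 6 of 6 libraries.

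The comparison of Pparg with ethanol sat at the threshold. Its edgeR adjusted p was 0.0534, 0.103, 0.0716, 0.0503 and 0.0672 without DEHP plus ethanol replicates 1, 2, 4, 5 and 6. It was 0.0505 and 0.0512 without DEHP replicates 4 and 6, 0.0915, 0.0682, 0.0941 and 0.0872 without ethanol replicates 1, 2, 4 and 5, and 0.0517 without vehicle replicate 3. The change lay between 0.36 and 0.48 in all leave-outs. The call was also lost in 5 of 13 other settings, with an adjusted p of 0.0558 with upper quartile factors, 0.0567 with the trend of change on gene length removed, 0.0689 with the replicate number as a block and 0.0793 with no filter, and a change of 0.41 (adjusted p = 0.0727) without the 3 libraries with RNA of other tissues. The interaction of Pparg was -0.30 (SE 0.22, adjusted p = 0.412).

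The summed FPKM of 8 adipocyte markers was 31.7 to 136 in DEHP plus ethanol livers, 23.6 to 160 in DEHP livers, 7.34 to 11.02 in ethanol livers and 13.1 to 70.6 in vehicle livers. Of these markers 4 were tested, and 2 rose in each DEHP group relative to vehicle. The sum was carried largely by Fabp4, a fatty acid binding protein also known from macrophages, which was present in all 24 libraries and averaged 39.9 ± 15.1 FPKM in DEHP plus ethanol livers, 52.0 ± 51.4 in DEHP livers, 5.59 ± 1.41 in ethanol livers and 15.4 ± 14 in vehicle livers (SD, n = 6 each). Cidec, a lipid droplet protein, and Adrb3 were at 0 in no library and Cfd in 6, and Cidec rose after DEHP plus ethanol relative to vehicle (log2 change 1.20, edgeR adjusted p = 0.00276). The fat cell genes Adipoq, Plin1, Lep and Retn were at 0 in 19, 20, 22 and 19 of 24 libraries. Outside vehicle replicate 1, DEHP plus ethanol replicate 6 and DEHP replicate 6 their highest values were 0.24, 0.08, 0 and 0.3 FPKM. The part of fat cell RNA in the Pparg change was not tested. Without these 3 libraries the Pparg change was 0.70 after DEHP (edgeR adjusted p = 0.00669) and 0.47 after DEHP plus ethanol (adjusted p = 0.0415) relative to vehicle.

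Rxra, on chromosome 2 at 27676445 to 27763319, encodes the main hepatic RXR and was the most abundant member. It was higher after ethanol alone. Its FPKM had a lowest, median and highest value of 76.1, 100.1 and 109.6 in DEHP plus ethanol livers, 84.5, 98.3 and 112.6 in DEHP livers, 106.8, 114.6 and 131.1 in ethanol livers, and 91.6, 96.7 and 105.5 in vehicle livers. Ethanol and vehicle livers did not overlap. The log2 change was 0.33 for ethanol against vehicle (SE 0.09, edgeR adjusted p = 0.00686), or 1.26-fold, in 6 of 6 libraries. It was -0.35 for DEHP plus ethanol against ethanol (SE 0.09, adjusted p = 0.0037), also in 6 of 6 libraries.

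Relative to vehicle Rxra gave 0.01 after DEHP (adjusted p = 0.926) and -0.02 after DEHP plus ethanol (adjusted p = 0.898). Its interaction, -0.36 (SE 0.12, edgeR adjusted p = 0.073), was not called, and was called by DESeq2 (-0.37, adjusted p = 0.0342), with the trend of change on gene length removed (-0.44, adjusted p = 0.0347) and without DEHP replicate 4 (-0.42, adjusted p = 0.0286). By limma on log2(TPM + 1) (TPM is FPKM rescaled to 1 total per library) the ethanol change of Rxra was 0.16 (adjusted p = 0.168). That scale moved the median of all genes by -0.15 for ethanol against vehicle.

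Rxrb, the partner receptor on chromosome 17 at 34031812 to 34038403, stayed between 14.25 and 20.7 FPKM in all libraries, with group means of 17.4 ± 1.88 after DEHP plus ethanol, 17.8 ± 2.01 after DEHP, 18.5 ± 1.33 after ethanol and 17.4 ± 2.15 after vehicle (SD, n = 6 each). Its log2 change was 0.15 for ethanol against vehicle (SE 0.09, edgeR adjusted p = 0.234) and -0.18 for DEHP plus ethanol against ethanol (SE 0.09, adjusted p = 0.171). Over the 24 libraries Rxrb followed Rxra with r = 0.688, and 0.623 within groups, the highest r of any pair of members. Between Ppard and Rxra r was -0.675 over all libraries and -0.127 within groups.

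Ncor1, on chromosome 11 at 62315663 to 62457414, encodes the corepressor that holds HDAC3 on unliganded nuclear receptors. It was lowest after the combination. Its FPKM had a lowest, median and highest value of 9.03, 9.59 and 11.7 in DEHP plus ethanol livers, 9.22, 11.6 and 12.3 in DEHP livers, 9.41, 10.96 and 12.8 in ethanol livers, and 11.6, 12.6 and 13.99 in vehicle livers. The highest DEHP plus ethanol value came from replicate 6, the library with skeletal muscle RNA, and the other 5 lay below every vehicle library. The log2 change from vehicle was -0.39 after the combination (SE 0.08, edgeR adjusted p = 0.000516), in 6 of 6 libraries, and -0.44 without the 3 libraries with RNA of other tissues (adjusted p = 0.000343).

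The call held in 12 of 13 other settings, among them own gene lengths as an offset (-0.34, edgeR adjusted p = 0.000821) and limma on log2(FPKM + 1) (-0.31, adjusted p = 0.004). It was lost with the trend of change on gene length taken out of each library (-0.11, edgeR adjusted p = 0.172). Ncor1 is the longest member, at 8240 ± 283 bases in DEHP plus ethanol livers and 8497 ± 350 in vehicle livers, and the tables list 34 transcripts for it. Relative to vehicle Ncor1 gave -0.18 after DEHP (SE 0.08, adjusted p = 0.094) and -0.16 after ethanol (SE 0.08, adjusted p = 0.126). Under some settings these were called. After DEHP, edgeR with a filter of 5 FPKM gave -0.23 (adjusted p = 0.0418). After ethanol, limma on log2(TPM + 1) gave -0.30 (adjusted p = 0.0164), and edgeR without ethanol replicate 4 gave -0.22 (adjusted p = 0.0366). Over the 13 other settings the changes ran from -0.23 to -0.004 after DEHP and from -0.30 to 0.07 after ethanol. Relative to ethanol the combination gave -0.22 (SE 0.08, edgeR adjusted p = 0.0373), in 5 of 6 libraries. That call was lost with adjusted p values of 0.072, 0.0645, 0.0585 and 0.0775 without DEHP plus ethanol replicates 1, 2, 4 and 5. They were 0.0628, 0.115 and 0.0551 without ethanol replicates 2, 4 and 5. It was also lost in 5 of 13 other settings, most of them with a smaller change, at -0.14 without TMM factors (adjusted p = 0.268), -0.12 on log2(FPKM + 1) (0.302), -0.13 on log2(FPKM + 0.1) (0.299), -0.07 on log2(TPM + 1) (0.607) and -0.22 with the replicate number as a block (0.0517). Exons of Ncor1 share 82 bases with Pigl on the opposite strand.

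Ppargc1b encodes PGC-1 beta, a coactivator of mitochondrial and lipid genes, and lies on chromosome 18 at 61291445 to 61400756. Nrip1 encodes the corepressor RIP140 and lies on chromosome 16 at 76287403 to 76373827. Mean Ppargc1b was 1.19 ± 0.33 FPKM in DEHP plus ethanol livers, 1.19 ± 0.36 in DEHP livers, 1.27 ± 0.24 in ethanol livers and 1.36 ± 0.44 in vehicle livers (SD, n = 6 each). Mean Nrip1 was 1.21 ± 0.27, 1.13 ± 0.20, 1.07 ± 0.38 and 1.29 ± 0.34 FPKM in the same groups. All groups overlapped for both. The SD reached 32.6% of the mean for Ppargc1b and 36% for Nrip1, against at most 12.5% for Rxra. At these counts changes of the size seen for Rxra could be missed, and the power to detect them was not computed. The SE of the log2 changes was 0.24 for Ppargc1b and 0.17 to 0.18 for Nrip1 in the 5 pairwise comparisons, against 0.09 for Rxra.

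For the other members the nearest genes by r over the 24 libraries were Uri1 (0.792), Git2 (0.774) and Bend7 (0.764) for Ppara, Pisd (0.852), Pir (0.851) and Chpt1 (0.849) for Pparg, and Myo18a (0.872), Gprc5c (0.862) and St3gal3 (0.857) for Rxra. They were Bag6 (0.806), Ppp1r37 (0.776) and Atg9a (0.776) for Rxrb, and among those of Ncor1 were Ythdf3 (0.854) and Apc (0.846). For the weakly counted pair they were Mfsd14b (0.701), Rnft1 (0.676) and Tmem56 (0.656) for Ppargc1b, and Dcaf10 (0.743), Pdzd8 (0.733) and Zmynd11 (0.710) for Nrip1. Exons of Chpt1, Zmynd11, Rnft1, Dcaf10 and Atg9a overlap annotated genes on the opposite strand, and exons of Pisd and Atg9a overlap genes on the same strand.

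The other genes of the pathway were taken from lists written with earlier results of these data known, and are described by counts. Of 17 further coregulator genes tested, 1 rose and 7 fell after DEHP plus ethanol relative to vehicle, 1 rose and 2 fell after DEHP, and 0 rose and 8 fell after ethanol. Their median log2 change was -0.27, -0.20 and -0.31 in these comparisons, against -0.01, -0.02 and -0.01 over all genes tested. The part of gene length in the coregulator changes was not tested. With the trend of change on gene length removed, calls over all genes were 1382 higher and 1176 lower after ethanol, in place of 1524 and 1555. After DEHP plus ethanol they were 1663 and 1426, in place of 2067 and 1865. Of all genes tested 19.3% rose and 17.4% fell after DEHP plus ethanol, 14.4% and 11.6% after DEHP, and 14.2% and 14.5% after ethanol. These shares also stand beside the lists that follow. Lpin1, a phosphatidate phosphatase that also acts as a coactivator with PPARA, moved most. Its mean was 28.0 ± 8.07 FPKM in DEHP plus ethanol livers, 28.4 ± 3.24 in DEHP livers, 10.1 ± 3.35 in ethanol livers and 72.7 ± 17.1 in vehicle livers (SD, n = 6 each). The log2 changes from vehicle were -1.38 after the combination (edgeR adjusted p = 8.83e-06), -1.37 after DEHP (1.63e-05) and -2.79 after ethanol (1.14e-09), and the interaction was 2.78 (SE 0.29, adjusted p = 1.74e-06).

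Ppargc1a, which encodes PGC-1 alpha, the better known relative of PGC-1 beta, fell after ethanol by 1.03 on the log2 scale (SE 0.19, edgeR adjusted p = 0.00041), and gave -0.13 after the combination (adjusted p = 0.598) and 0.09 after DEHP (adjusted p = 0.762). Its interaction was 0.82 (SE 0.26, adjusted p = 0.0603). Med1, a Mediator subunit that binds nuclear receptors, fell by 0.71 after ethanol (adjusted p = 0.00318). Crebbp, an acetyltransferase, gave changes of -0.91 after the combination (adjusted p = 3.93e-05), -0.46 after DEHP (0.0227) and -0.54 after ethanol (0.00837). Hdac3, the deacetylase partner of NCOR1, rose by 0.40 after the combination (adjusted p = 0.000355) and by 0.40 after DEHP (0.000515).

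Of 11 further receptors that are RXRs or pair with them, 2 rose and 2 fell after DEHP plus ethanol relative to vehicle, 1 rose and 2 fell after DEHP, and 4 rose and 2 fell after ethanol. Their medians were -0.10, 0.06 and 0.24, against -0.01, -0.02 and -0.01 over all genes tested. Of all genes tested 36.8%, 26% and 28.8% were called in these comparisons. The receptor counts in the 2 DEHP groups lie near those shares. Rxrg, the least abundant RXR gene here at 2.58 ± 0.90 FPKM in DEHP plus ethanol livers, 2.47 ± 0.79 in DEHP livers, 4.08 ± 1.00 in ethanol livers and 2.76 ± 0.77 in vehicle livers, was higher after ethanol than after vehicle (log2 change 0.63, edgeR adjusted p = 0.0434) and lower after the combination than after ethanol (-0.74, adjusted p = 0.018). Nr1h4, which encodes the bile acid receptor FXR, gave changes of -0.42 after the combination (adjusted p = 0.0017), -0.35 after DEHP (0.0107) and 0.47 after ethanol (0.00122), and had an interaction of -0.54 (adjusted p = 0.0205). On counts Thra, a thyroid hormone receptor gene, rose by 1.13 after the combination (edgeR adjusted p = 8.41e-07), 0.61 after DEHP (0.00214) and 1.61 after ethanol (1.13e-08). Its level per length differed less between groups. Mean FPKM was 10.75 ± 2.2 in DEHP plus ethanol livers, 9.19 ± 0.89 in DEHP livers, 11.43 ± 1.39 in ethanol livers and 7.71 ± 0.95 in vehicle livers. Exons of Thra share 263 bases with the clock gene Nr1d1 on the opposite strand, so reads of the pair may not be told apart.

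Known PPARA target genes rose in both DEHP groups. Of 40 tested, 36 rose and 1 fell after DEHP plus ethanol relative to vehicle, 35 rose and 1 fell after DEHP, and 5 rose and 5 fell after ethanol, with median log2 changes of 1.28, 1.10 and 0.17. Mean Ehhadh, the bifunctional enzyme of peroxisomal fatty acid oxidation, was 2659 ± 782 FPKM in DEHP plus ethanol livers, 2457 ± 803 in DEHP livers, 101 ± 9.59 in ethanol livers and 98.1 ± 23.4 in vehicle livers (SD, n = 6 each). Its log2 changes from vehicle were 4.76 after the combination (edgeR adjusted p = 2.41e-13), 4.63 after DEHP (4.15e-13) and 0.11 after ethanol (0.721). The gene that fell in both DEHP groups was Angptl4, an inhibitor of lipoprotein lipase, with changes of -1.58 after the combination (adjusted p = 0.000141) and -1.07 after DEHP (0.00673), and it fell by 2.05 after ethanol (2.38e-05). Beside these, Ppara FPKM averaged 29.4, 31.8, 31.4 and 30.8 in DEHP plus ethanol, DEHP, ethanol and vehicle livers.

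Of 7 lipid storage genes linked to PPARG, 6 rose and 1 fell after DEHP plus ethanol relative to vehicle, 4 rose and 1 fell after DEHP, and 0 rose and 3 fell after ethanol. Cd36 is counted in this list and also in that of the PPARA target genes. Mogat1, an acyltransferase of triglyceride synthesis, averaged 18.5 ± 3.58 FPKM in DEHP plus ethanol livers, 17.1 ± 3.46 in DEHP livers, 0.368 ± 0.287 in ethanol livers and 0.187 ± 0.228 in vehicle livers (SD, n = 6 each). Its log2 changes were 6.49 after the combination (edgeR adjusted p = 2.12e-12) and 6.37 after DEHP (3.7e-12). Plin4, a lipid droplet coat protein of fat cells, gave changes of -2.22 after the combination (adjusted p = 0.00107), -2.59 after DEHP (0.000519) and -2.30 after ethanol (0.00174). Mean Plin4 was 1.02 ± 1.51 FPKM in DEHP plus ethanol livers, 0.787 ± 0.115 in DEHP livers, 0.948 ± 0.421 in ethanol livers and 4.64 ± 2.68 in vehicle livers. The vehicle and DEHP plus ethanol groups each hold a library with skeletal muscle RNA, whose part in these changes was not tested. Exons of Mogat1 share 200 bases, and those of Plin4 17 bases, with other annotated genes on the opposite strand.

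**Figure D5:**
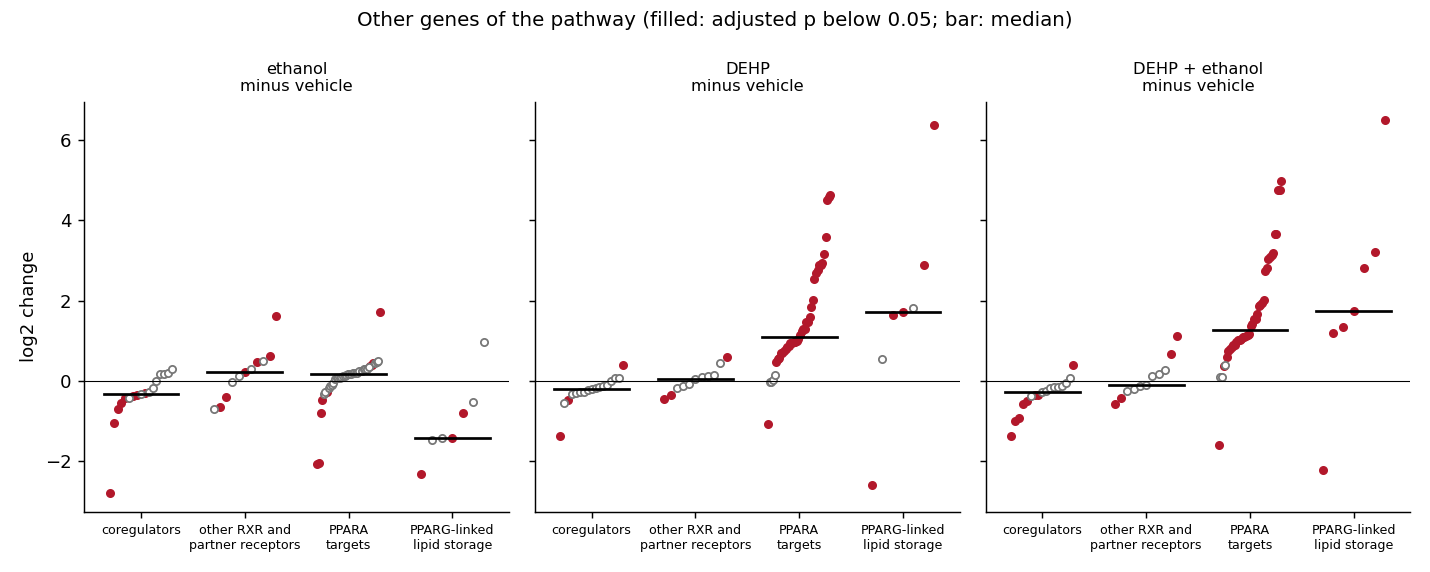
Log2 change of each tested gene (points) in 4 lists, for ethanol, DEHP and DEHP plus ethanol, each minus vehicle; filled points have an adjusted p below 0.05 and bars mark the list's median. The PPARA targets have medians of 0.17, 1.10 and 1.28 in these panels, and the coregulators -0.31, -0.20 and -0.27.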

How the data were processed

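RNA-seq of 24 mouse liver libraries, 6 per group, was analysed from 1 deposited table per library. Per the file headers, the authors give each gene a length in bases, an expected count, which is an estimated read number without normalisation, and an FPKM value. Between 94.5% and 95.3% of the deposited expected counts were whole numbers. The submitters' processing notes name Cuffdiff and the builds mm10 and GRCm38; no aligner, read counter, filter or strand setting was named (not given in the sources used here). Groups and replicate numbers come from the titles.

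Genes with at least 1 FPKM in at least 6 libraries (10697) were tested on rounded expected counts with edgeR 4.0.16 in R 4.3.3 (TMM factors, all 4 groups in 1 fit, quasi-likelihood F test, Benjamini-Hochberg adjustment, calls below 0.05). Each standard error was taken as the size of the unshrunken change over the root of its F value. DESeq2 1.42.0, limma 3.58.1 on log2(value + 1) or log2(value + 0.1), and other scalings, filters and sample sets were alternatives. Single values per library were compared by exact two-sided permutation (scipy 1.17.1; 924 assignments of 6 against 6). Scripts were tested on simulated data. The totals per library, 7324793 to 8016662, limit precision for genes with few counts.

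The members and lists were chosen with earlier results of these data known. The text names all 8 members, for each the 3 genes of highest r, and from each list genes among the 4 largest called changes in a comparison or among 7 fixed genes. Some genes that this rule names are not reported here. The adipocyte markers and Angptl4 in the DEHP comparisons were named after their values were seen. The own-length offset, the length comparison and the promoter motifs were chosen after seeing the data. Positions are from RefSeq, GRCm38.p6; promoter windows were searched for 7 members.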

Additional observations from a re-analysis of the deposited data

Results flagged for a closer look

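The interaction of Ppard, 2.68 on the log2 scale, was listed because ethanol went with different effects in the presence and absence of DEHP by the test of the difference itself. The change was 0.15 for DEHP plus ethanol against DEHP and -2.53 for ethanol against vehicle.

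Single libraries were compared with their group by Dixon's gap test in 36 sets of 6 libraries, of which 2 stood out, where chance gives about 5% of sets. DEHP plus ethanol replicate 3 had 3.55 FPKM of Ppard, with a gap of 0.762 of the group's range. Ethanol replicate 4 had 41.55 FPKM of Ppara, with a gap of 0.84 of the range, while the other 5 ethanol libraries reached at most 30.3 FPKM.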

How the results depend on the processing

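Among the alternatives the Ppard calls for ethanol against vehicle, DEHP plus ethanol against ethanol and the interaction held in every setting and with any 1 library left out. Values that moved are given by setting; the cause was not tested unless named.

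The 13 genes called for DEHP plus ethanol against DEHP became 44 by DESeq2, 1 with no filter, 6 with only the groups compared, 2 with the length trend removed, 7 by limma on log2(FPKM + 1), 6 on log2(FPKM + 0.1) and 8 without vehicle replicate 1, DEHP plus ethanol replicate 6 and DEHP replicate 6. With 1 library left out they ran from 0 to 18: 0 without DEHP plus ethanol replicates 1, 2 or 5 or DEHP replicates 2 or 3, 6 without DEHP plus ethanol replicate 3 or DEHP replicate 5, and 4 without DEHP replicate 6. The 686 genes of the interaction became 365 without the 3 libraries and ran to 835 with 1 library left out.

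Of the members, 1 in place of 4 was called for DEHP plus ethanol against vehicle with the length trend removed, and 2 to 4 with 1 library left out (2 without vehicle replicate 6). For DEHP plus ethanol against ethanol 3 in place of 5 were called on log2(FPKM + 0.1), log2(FPKM + 1) and log2(TPM + 1), and 3 to 5 with 1 library left out (3 without DEHP plus ethanol replicates 1, 2, 4 or 5 or ethanol replicates 2, 4 or 5). For DEHP against vehicle 1 in place of 2 was called without the 3 libraries. For the interaction 2 in place of 1 were called by DESeq2 and with the length trend removed, and 1 to 2 with 1 library left out (2 without DEHP replicate 4). The Ppard share differed by -5.66 points for DEHP against vehicle from counts, and by 1.23 to 5.58 points for DEHP plus ethanol against DEHP with 1 library left out (5.58 without DEHP plus ethanol replicate 3).

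Replicate numbers were not used to pair the samples in the main tests. With group means taken out, same-numbered libraries correlated over 0.1 in 6 of 36 pairs of groups (median -0.01). Such correlations cannot tell whether these libraries were handled together. With the replicate block edgeR called 5 genes for DEHP plus ethanol against DEHP, 3 members for DEHP plus ethanol against ethanol, and Ppargc1b gave 0.011 for ethanol against vehicle. Sign flips within the block left the share differences of -23.6, -10.8 and 15.8 points at an adjusted p of 0.0521 by an exact permutation test, where 0.0312 is the smallest p that 6 pairs allow.

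Signs turned only for log2 changes without a call (adjusted p of 0.214 or more). For DEHP against vehicle these were Rxra (-0.031) and Rxrb (-0.023) with a filter of 5 FPKM, Rxra (-0.0026) with only the groups compared, Rxrb (-0.013) without the 3 libraries, and Ppara with own lengths (0.023) and on log2(FPKM + 1) (0.074), log2(FPKM + 0.1) (0.077) and log2(TPM + 1) (0.066). For ethanol against vehicle they were Ppargc1b (0.028) and Ncor1 (0.071) with the length trend removed, Ppara without TMM (-0.022), and Ppara (-0.055), Pparg (-0.066) and Rxrb (-0.0072) on log2(TPM + 1). For DEHP plus ethanol against vehicle they were Rxra (0.15) and Nrip1 (0.034) with the length trend removed and Rxrb on log2(FPKM + 1) (0.0062) and log2(FPKM + 0.1) (0.0066). For DEHP plus ethanol against DEHP they were Rxra (0.028) and Nrip1 (0.052) with the length trend removed, Nrip1 with own lengths (0.096), on log2(FPKM + 1) (0.049), log2(FPKM + 0.1) (0.081) and log2(TPM + 1) (0.033), and Ppargc1b on log2(TPM + 1) (-0.019) and without the 3 libraries (-0.025). Against ethanol Nrip1 gave -0.0032 with no filter and -0.06 without the 3 libraries. For the interaction Ncor1 gave 0.027 without TMM, 0.049 on log2(FPKM + 1), 0.052 on log2(FPKM + 0.1) and 0.11 on log2(TPM + 1), and Nrip1 gave -0.034 without the 3 libraries.

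With 1 library, or the 3 together, left out, signs turned for Ppara (-0.037 to 0.12) and Ppargc1b (-0.16 to 0.0702) in ethanol against vehicle, Rxra (-0.032 to 0.061) and Rxrb (-0.022 to 0.074) in DEHP against vehicle, and Rxra (-0.063 to 0.0298) and Rxrb (-0.079 to 0.0083) in DEHP plus ethanol against vehicle. They turned for Rxra (-0.097 to 0.02002), Ppargc1b (-0.11 to 0.12) and Nrip1 (-0.19 to 0.033) in DEHP plus ethanol against DEHP, for Nrip1 (-0.067 to 0.19) against ethanol, and for Ppargc1b (-0.081 to 0.17), Ncor1 (-0.13 to 0.013) and Nrip1 (-0.034 to 0.38) in the interaction. In all, 2167 recomputed values kept direction and call or, for counts of calls, stayed near the reported count. Of the others 63 lost a call, 7 gained a call, 77 turned sign and 34 counts of calls moved further. Depth limits Ppargc1b and Nrip1, at 18 to 48 and 44 to 102 counts per library. It also limits Pparg, at 37 to 121 counts, and Ppard in ethanol livers, at 35 to 87.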
